A study of Sus scrofa with 6 samples.

Results

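Alveolar type I cells are the flat epithelial cells that line most of the gas-exchange surface of the lung. They lie against the capillary endothelium across a shared basement membrane, are rich in caveolae, and are sealed to their neighbours by tight junctions. During late gestation they flatten and spread as the distal air spaces widen, and at birth the surface they form passes from liquid to air. Alveolar type II cells, which make surfactant, share the same epithelium and can give rise to them.

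The genes described here are 10 genes known for their expression in alveolar type I cells, namely AGER, HOPX, PDPN, CAV1, CAV2, RTKN2, EMP2, CLDN18, AKAP5 and GPRC5A. They were chosen by symbol, and 7 of the 10 had a row among the 14579 mRNAs of the table. HOPX, RTKN2 and EMP2 matched no row by symbol or identifier and were not analysed here. A further 4739 rows carried no symbol and may hold them. The measured identifiers are ENSSSCG00000001437 (AGER), ENSSSCG00000029592 (GPRC5A), ENSSSCG00000003451 (PDPN), ENSSSCG00000016634 (CAV1), ENSSSCG00000016635 (CAV2), ENSSSCG00000011657 (CLDN18) and ENSSSCG00000002268 (AKAP5). Values were FPKM on the Sscrofa10.2 annotation. No coordinates are given, because the annotation used here for gene order is of another build, Sscrofa11.1.

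All animals were female piglets of a Tibetan pig sire and a Meishan dam. The fetal group (Fetal1, Fetal2 and Fetal3, prenatal in the labels) was taken on the last day before birth from 3 sows, and the neonatal group (Neonatal1, Neonatal2 and Neonatal3) at 2 days after birth from 3 different sows. Whole lung tissue was used, so every library mixes alveolar epithelium with airway, vascular, connective tissue and blood cells. In such bulk samples, fewer cells of a type and less RNA per cell cannot be told apart. Age, the onset of air breathing and the sow cannot be told apart, since no sow gave piglets of both ages.

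The summed FPKM of all mRNAs ranged from 339491 to 471220 before birth and from 491548 to 777982 after it. Differences are given as neonatal minus fetal log2(FPKM + 1). They were tested with limma, and p-values were adjusted over the 14579 mRNAs by the Benjamini-Hochberg method. An adjusted p of 0.05 or less counted as past the threshold. The median difference of all mRNAs was 0.13 on the log2 scale, and it became -0.0090 after median-of-ratios scaling, so small differences are read against this shift. The share of mRNAs past the threshold was 6.87%, with 789 higher and 212 lower in the neonatal group. Leaving out any sample other than Neonatal1 lowered the number of calls from 1001 to between 196 and 397.

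None of the 7 measured alveolar type I genes was past the threshold in limma, and 0 of 7 had an unadjusted p below 0.05, against 24.2% of all mRNAs. Their differences lay between -0.45 for AKAP5 and 0.38 for PDPN, with a median of 0.049. Of the 7 genes, 4 had a positive difference and 3 a negative one, and 3 lay above the median of all mRNAs. With median-of-ratios scaling 3 differences were positive, and with quantile normalization 2. Under quantile normalization alone, CAV1 and CAV2 were past the threshold as lower in the neonatal group. Only GPRC5A had groups that did not overlap, which is 1 gene of 7 beside 30.5% of all mRNAs.

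**Figure D1:**
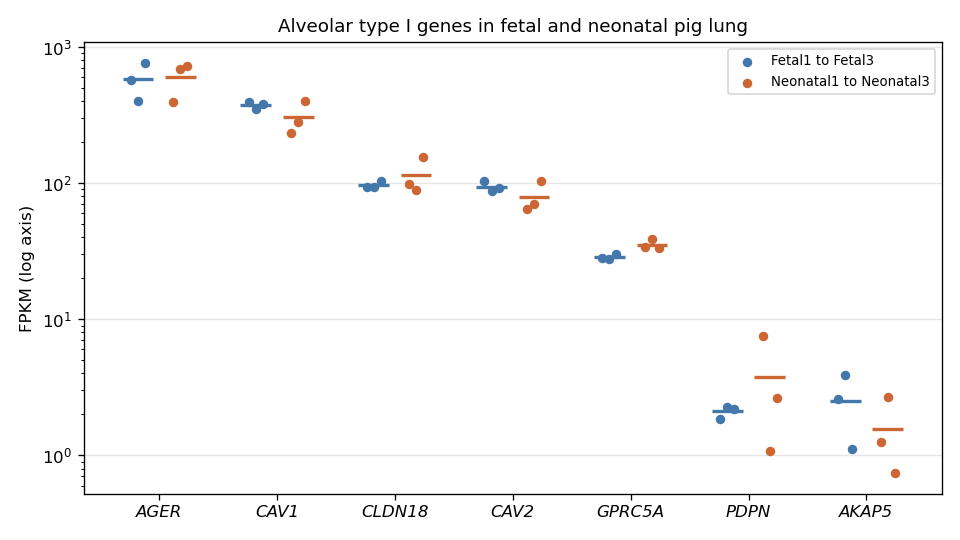
FPKM on a log axis of the 7 measured alveolar type I genes, ordered by mean level. Each point is 1 piglet and each bar the mean of 3, and the fetal and neonatal points overlap for every gene but GPRC5A.

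AGER encodes the receptor for advanced glycation end products (RAGE), a membrane receptor that is far more abundant in alveolar type I cells than in other tissues. It was the most abundant of the genes in every sample. AGER had 578, 406 and 767 FPKM in Fetal1, Fetal2 and Fetal3, and 396, 695 and 724 FPKM in Neonatal1, Neonatal2 and Neonatal3. Each group thus held one low sample, and the ranges overlapped almost fully. Group means were 583 ± 181 and 605 ± 182 FPKM (SD, n = 3 each), a log2 difference of 0.049 with a standard error of 0.39 (limma, adjusted p = 0.948). The 95% interval of this difference ran from -0.85 to 0.95, or from 0.555-fold to 1.93-fold, so changes of up to nearly that size were not detectable here. The direction was not fixed either, since the difference was -0.13 with median-of-ratios scaling, -0.60 with quantile normalization (adjusted p = 0.121) and -0.19 without Fetal2. Without Neonatal2 it was -0.076, and without Neonatal3 it was -0.11. Ranked among all mRNAs of a sample, AGER lay at percentiles 99.17 to 99.27 in the fetal and 98.76 to 99.03 in the neonatal samples. Every neonatal rank was thus below every fetal one, though the FPKM overlapped. The same held for CAV1, at percentiles 98.85 to 99.0 in the fetal and 98.21 to 98.29 in the neonatal samples. It held for CAV2 too, at percentiles 96.56 to 96.91 in the fetal and 94.35 to 95.5 in the neonatal samples. The share of all mRNAs whose ranks separate in this way was not determined.

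Of the 8 listed ligands of RAGE, 2 had a row named by the reference table, and 1 of these was past the threshold. This was S100A8, a calcium-binding protein stored in neutrophils and monocytes, with 37.7, 25.7 and 36.7 FPKM in Fetal1 to Fetal3 and 185, 253 and 280.2 FPKM in Neonatal1 to Neonatal3. It rose by 2.81 on the log2 scale (standard error 0.25, limma, adjusted p = 0.00254), and no omission of a single sample took this call away. S100A4, also a RAGE ligand, had 6.84 ± 1.41 and 16.5 ± 10.7 FPKM (SD, n = 3 each) and missed the threshold (limma, adjusted p = 0.276). S100A9 and S100A12, whose names come from the study's own list of changed genes and are therefore no independent evidence, were also past the threshold, with differences of 3.15 and 3.72.

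GPRC5A encodes an orphan G protein-coupled receptor induced by retinoic acid and prominent in lung epithelium. It had 28.3, 27.9 and 30.3 FPKM in Fetal1 to Fetal3 and 34.0, 38.8 and 33.5 FPKM in Neonatal1 to Neonatal3. All neonatal values exceeded all fetal ones, and the spread within groups was small, at 0.092 on the log2 scale against a median of 0.30 over mRNAs with a mean FPKM of at least 1. The log2 difference was nevertheless only 0.29 (standard error 0.16, limma, adjusted p = 0.326), with a 95% interval from -0.096 to 0.67. It shrank to 0.11 with median-of-ratios scaling and to 0.0062 with quantile normalization. Its relative GPRC5B had 7.99 ± 1.95 and 6.97 ± 0.592 FPKM (SD, n = 3 each; limma, adjusted p = 0.694), and the other listed members of the family were not analysed here.

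PDPN encodes podoplanin, a mucin-type membrane glycoprotein that links the cell surface to the actin cytoskeleton. It marks the apical surface of alveolar type I cells and is also made by lymphatic endothelium and mesothelium. PDPN was low in whole lung, with 1.85, 2.26 and 2.19 FPKM in Fetal1 to Fetal3 and 7.55, 1.08 and 2.65 FPKM in Neonatal1 to Neonatal3. The fetal values lay close together, while the neonatal values differed 7.0-fold and included both the highest and the lowest value of all 6 samples. The log2 difference was 0.38 (standard error 0.47, limma, adjusted p = 0.658), with a 95% interval from -0.72 to 1.47. It rested on Neonatal1, without which it was -0.17 (adjusted p = 0.738).

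The list of podoplanin partners includes ezrin, radixin and moesin, which tether membrane proteins to actin, and the adhesion proteins CD44 and CD9. Of its 6 measured genes, 0 were past the threshold, and the median difference was 0.29. With quantile normalization it was -0.071. EZR went from 107 ± 27.5 to 161 ± 47.2 FPKM (SD, n = 3 each; limma, adjusted p = 0.302). CD44, the hyaluronan receptor, had groups that did not overlap, from 73.1 ± 21.4 to 92.2 ± 3.95 FPKM (SD, n = 3 each; limma, adjusted p = 0.416). CD9 had 29.3 ± 12.7 FPKM in the neonatal group, with 14.9 FPKM in Neonatal1 alone below every other sample. All 5 measured genes of the lymphatic endothelial list, the other main source of podoplanin, had negative differences, with a median of -0.41. The share of all mRNAs with a negative difference is not given here, so this count is not read as particular to the list. Of the 5 genes, 1 was past the threshold. This was LYVE1, the hyaluronan receptor of lymphatic vessels and some macrophages, with 104, 57.0 and 66.1 FPKM in Fetal1 to Fetal3 and 22.7, 30.9 and 34.4 FPKM in Neonatal1 to Neonatal3. It fell by 1.31 on the log2 scale (standard error 0.28, limma, adjusted p = 0.0349), and with 1 sample left out, whichever it was, the adjusted p lay between 0.0756 and 0.112. The summed FPKM of the lymphatic list was 76.6 to 129 in the fetal and 40.2 to 52.7 in the neonatal samples. LYVE1 made up most of this sum in every sample, so the sum largely repeats that gene. PROX1, of the same list, had 1.57 ± 0.372 and 1.30 ± 0.806 FPKM (SD, n = 3 each), with groups that overlapped. The part of lymphatic cells in the values of PDPN was not tested. Of the mesothelial list, only WT1 had a row named by the reference table. WT1 was listed at 0 in Fetal3 and Neonatal2 and reached 0.819 FPKM at most. Mesothelin (MSLN), named from the study's own list, had 70.0 ± 10.3 and 50.5 ± 18 FPKM (SD, n = 3 each) before and after birth, with groups that overlapped.

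CAV1 and CAV2 encode caveolin-1 and caveolin-2, the membrane proteins from which caveolae are built. Both are abundant in alveolar type I cells and in capillary endothelium, and caveolin-2 needs caveolin-1 to reach the cell surface. In the RefSeq annotation of Sscrofa11.1 the genes are direct neighbours among coding genes, between MET and TES. CAV1 had 394, 351 and 385 FPKM in Fetal1 to Fetal3 and 233, 284 and 403 FPKM in Neonatal1 to Neonatal3. CAV2 had 104, 87.5 and 92.6 FPKM in Fetal1 to Fetal3 and 64.7, 70.8 and 103 FPKM in Neonatal1 to Neonatal3. For both genes Neonatal1 and Neonatal2 lay below every fetal sample, while Neonatal3 lay at or near the top of the fetal range.

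The log2 difference was -0.33 for CAV1 (standard error 0.28, 95% interval from -1.0 to 0.33; limma, adjusted p = 0.510). For CAV2 it was -0.27 (standard error 0.23, 95% interval from -0.82 to 0.27; limma, adjusted p = 0.511). These are the only members whose call depended on the scaling. With quantile normalization, which gives every sample the same distribution of values, the difference became -0.91 for CAV1 (adjusted p = 0.0232) and -0.66 for CAV2 (adjusted p = 0.0449). With median-of-ratios scaling it was -0.51 for CAV1 (adjusted p = 0.219) and -0.45 for CAV2 (adjusted p = 0.186). The direction was negative under each of the scalings, pseudocounts and filters tried and with any single sample left out.

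The ratio of CAV1 to CAV2 was 3.80, 4.02 and 4.16 in the fetal samples and 3.61, 4.01 and 3.90 in the neonatal samples. It thus varied far less from piglet to piglet than either gene, without separation of the groups (two-sided exact permutation test, p = 0.4). The levels of both caveolins can be set beside PECAM1, an adhesion protein of all vascular endothelium, which had 129.6 ± 10.3 and 134 ± 10 FPKM (SD, n = 3 each; limma, adjusted p = 0.902). The ratio of CAV1 to PECAM1 was 2.74 to 3.07 in the fetal samples and 1.78, 1.95 and 3.22 in the neonatal samples, without separation of the groups (two-sided exact permutation test, p = 0.4). Of the 8 measured endothelial genes, 0 were past the threshold, and their median difference was -0.029, below that of all mRNAs. Of the 8, 4 had a positive difference and 4 a negative one. The largest were those of TEK at -0.48 (limma, adjusted p = 0.246) and KDR at -0.40 (limma, adjusted p = 0.195). KDR alone had groups that did not overlap, lower in the neonatal group, which is 1 gene of 8 beside 30.5% of all mRNAs. The summed FPKM of the 8 genes was 312 to 357 in the fetal and 295 to 342 in the neonatal samples. The part of endothelial cells in the caveolin values was not tested.

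The caveola coat list holds the cavins, which wrap the caveolar bulb, and EHD2 and the pacsins, which shape its neck. Of its 6 measured genes, 1 was past the threshold, and the median difference was 0.33. This gene was CAVIN3, which had 32.4, 26.0 and 29.3 FPKM in Fetal1 to Fetal3 and 66.5, 87.8 and 90.4 FPKM in Neonatal1 to Neonatal3. It rose by 1.44 on the log2 scale (standard error 0.20, limma, adjusted p = 0.00929), and the adjusted p was 0.0577 without Fetal2 and 0.0515 without Neonatal2. The ratio of CAV1 to CAVIN3 was 12.2, 13.5 and 13.2 in the fetal samples and 3.51, 3.23 and 4.46 in the neonatal samples. Every neonatal ratio lay well below every fetal one (two-sided exact permutation test, p = 0.1, which 3 samples against 3 cannot go below, and 0.24 after Benjamini-Hochberg adjustment over 12 ratios). CAVIN2 had 95.4, 86.5 and 80.2 FPKM before birth and 34.8, 71.8 and 84.4 FPKM after it (limma, adjusted p = 0.359). EHD2 was highest in Neonatal1, at 82.5 FPKM, and lay between 39.9 and 55.0 FPKM in the other samples. PACSIN2 and PACSIN3 had differences of 0.34 and -0.37 and missed the threshold (limma, adjusted p = 0.302 and 0.407).

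**Figure D2:**
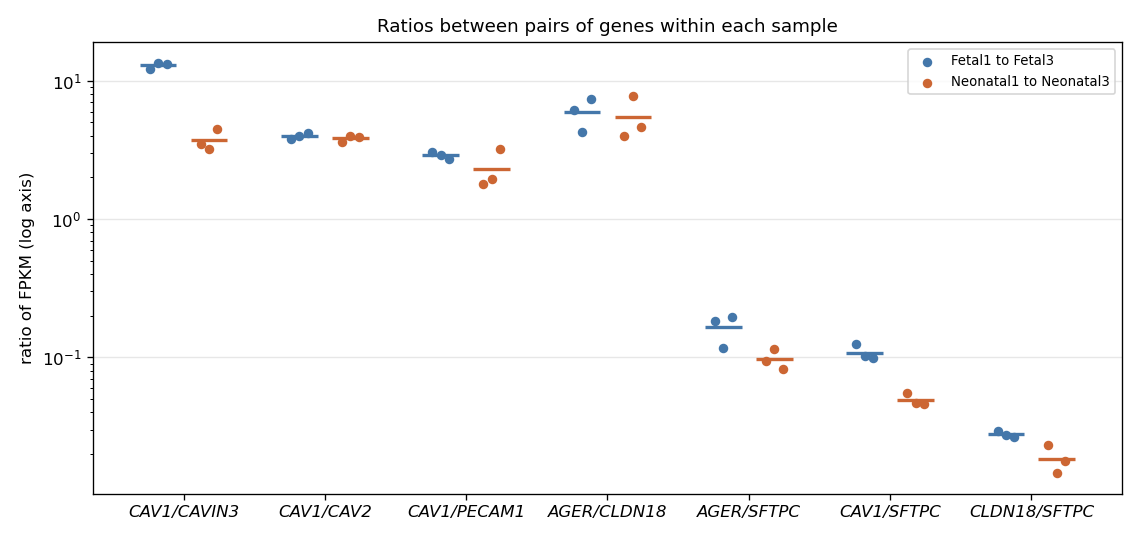
Ratios of FPKM within each sample for 7 pairs of genes, on a log axis, with 1 point per piglet and a bar at the mean of 3. The ratio of CAV1 to CAV2 stays between 3.61 and 4.16 in all 6 samples, while the neonatal ratios of CAV1 to CAVIN3, between 3.23 and 4.46, lie below every fetal one.

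CLDN18 encodes claudin-18, the main claudin of alveolar tight junctions, which limits the leak of ions and water across the epithelium. It had 93.4, 94.5 and 104 FPKM in Fetal1 to Fetal3 and 99.0, 88.8 and 155 FPKM in Neonatal1 to Neonatal3. The neonatal range enclosed the fetal one because of a high value in Neonatal3, the neonatal sample in which CAV1 and CAV2 were highest too. The log2 difference was 0.19 (standard error 0.25, 95% interval from -0.40 to 0.78; limma, adjusted p = 0.682). It was -0.052 without Neonatal3, 0.012 with median-of-ratios scaling and -0.22 with quantile normalization. The ratio of AGER to CLDN18 ranged from 4.0 to 7.83 and was as variable within as between groups (two-sided exact permutation test, p = 0.8).

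Among the other genes of the tight junction, 3 of 10 measured were past the threshold, each as lower in the neonatal group. Their median difference was -0.25, and 8 of 10 differences were negative, or 10 of 10 with either other scaling. The share of all mRNAs with a negative difference under each scaling is not given here. The counts of signs are therefore not read as particular to the tight junction. CLDN10, a claudin that forms ion-selective pores, had 26.6, 14.9 and 11.7 FPKM in Fetal1 to Fetal3 and 4.0, 4.16 and 4.34 FPKM in Neonatal1 to Neonatal3. It fell by 1.78 on the log2 scale (standard error 0.29, limma, adjusted p = 0.0157), with an adjusted p of 0.0719 to 0.0785 when Fetal2, Neonatal2 or Neonatal3 was left out. CLDN8, a claudin that seals against cations, fell from 3.23 ± 0.842 to 0.757 ± 0.547 FPKM (SD, n = 3 each; limma, adjusted p = 0.0437). MARVELD3, a relative of occludin, fell from 5.58 ± 1.79 to 1.63 ± 0.567 FPKM (SD, n = 3 each; limma, adjusted p = 0.0308). The calls on CLDN8 and MARVELD3 were less firm, since the adjusted p was 0.0720 to 0.138 for CLDN8 with any sample left out and 0.0727 to 0.118 for MARVELD3 without any sample but Neonatal1. Both CLDN8 and CLDN10 are also known from other epithelia. The summed FPKM of the airway epithelial list ranged from 2342 to 6930 in the fetal and from 939 to 2952 in the neonatal samples. Most of this sum in every sample was a single gene, SCGB3A2, whose groups overlapped. FOXJ1, of the same list, had 53.2 ± 13.9 and 41.8 ± 3.52 FPKM (SD, n = 3 each). SCGB1A1 had 139, 119 and 99.8 FPKM in Fetal1 to Fetal3 and 62.2, 0.213 and 62.0 FPKM in Neonatal1 to Neonatal3. Its groups did not overlap (limma, adjusted p = 0.265). Of the 4 measured airway genes, 1 had a positive difference and 3 a negative one. A relation of the claudins to airway cells was not tested. CLDN4, a sealing claudin of alveolar and airway cells, had 60.8 ± 6.99 and 68.5 ± 14.7 FPKM (SD, n = 3 each; limma, adjusted p = 0.693). OCLN, the gene of occludin, had 12.1 ± 1.74 and 8.96 ± 1.83 FPKM (SD, n = 3 each; limma, adjusted p = 0.285). CLDN5, the claudin of endothelium, whose name comes from the study's own list, had a difference of 1.2 (limma, adjusted p = 0.0585).

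AKAP5 encodes an anchoring protein that holds protein kinase A, protein kinase C and the phosphatase calcineurin near the membrane. It was low in whole lung, like PDPN, with 2.59, 3.87 and 1.11 FPKM in Fetal1 to Fetal3 and 1.26, 2.71 and 0.741 FPKM in Neonatal1 to Neonatal3. The groups overlapped broadly, and the value differed 5.23-fold between the highest and the lowest sample. The log2 difference was -0.45 (standard error 0.39, 95% interval from -1.36 to 0.46; limma, adjusted p = 0.516), and it stayed negative with any sample left out. None of the 7 measured genes of its partner list was past the threshold, and 1 had an unadjusted p below 0.05. PRKAR2A, the regulatory subunit of protein kinase A that binds such anchors, had 7.65 ± 0.585 and 11.7 ± 0.683 FPKM (SD, n = 3 each), with groups that did not overlap (limma, adjusted p = 0.0917). PPP3CB, a catalytic subunit of calcineurin, and ADCY5, an adenylyl cyclase, had differences of -0.41 and -0.39 (limma, adjusted p = 0.468 and 0.288).

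**Figure D3:**
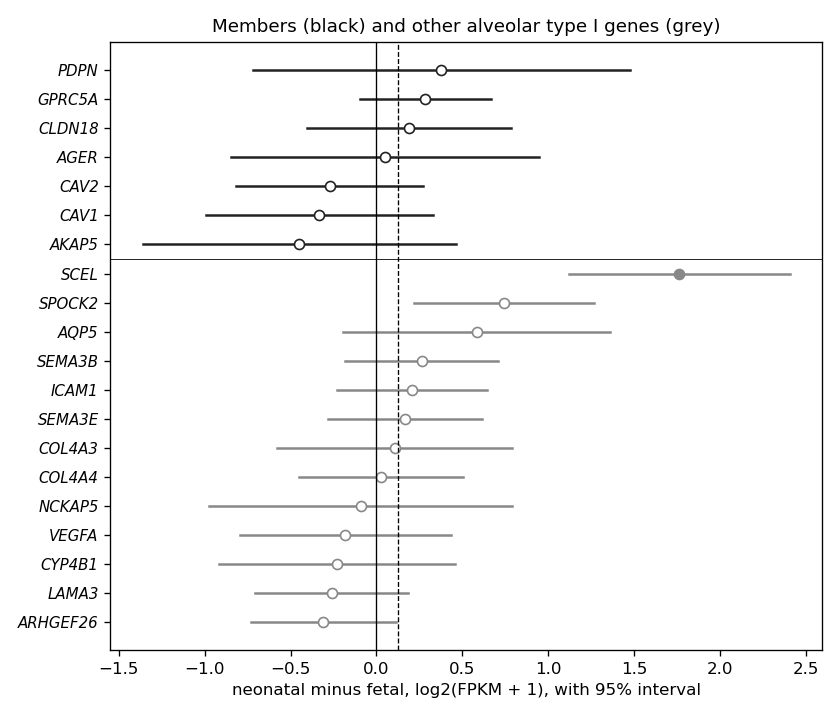
Differences in log2(FPKM + 1), neonatal minus fetal, with 95% intervals from limma, of the 7 measured genes (black) and 13 further alveolar type I genes (grey), filled where the adjusted p was 0.05 or less. The solid line marks 0 and the dashed line the median of all mRNAs, 0.13, and each black interval includes 0 while SCEL alone is filled.

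EMP3, a relative of the membrane protein EMP2, had 22.7 ± 14.0 and 39.9 ± 15.3 FPKM (SD, n = 3 each; limma, adjusted p = 0.300).

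FPKM is scaled to transcript length, so levels can be compared between genes, but only roughly. Other differences between genes in mapping and annotation were not examined. The order by mean FPKM over the 6 samples was AGER at 594, CAV1 at 342, CLDN18 at 106, CAV2 at 87.1, GPRC5A at 32.1, PDPN at 2.93 and AKAP5 at 2.05. AGER exceeded CAV1 in 6 of 6 samples, by 1.16 to 2.45 times, and CAV1 exceeded CLDN18 in 6 of 6, by 2.36 to 4.22 times. CLDN18 and CAV2 changed places in Fetal1, where their ratio was 0.900, so these neighbours were not separated beyond their spread. PDPN and AKAP5 were not separated either, since PDPN was higher in 3 of 6 samples. The summed FPKM of the 7 genes was 1202, 973 and 1382 in the fetal samples and 836, 1181 and 1423 in the neonatal samples. As a share of the summed FPKM of all mRNAs it was 0.283%, 0.287% and 0.293% before birth and 0.170%, 0.196% and 0.183% after it, while the total it is taken of was higher in every neonatal sample.

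The spread between piglets differed strongly between the genes. The SD within groups, on the log2 scale, was 0.73 for PDPN, 0.58 for AKAP5 and 0.47 for AGER, above the median of 0.30 over mRNAs with a mean FPKM of at least 1. It was near that median for CLDN18, CAV1 and CAV2, at 0.31, 0.29 and 0.27. The genes did not deviate together in every sample. In Neonatal1, AGER and CAV1 lay 0.56 and 0.36 below the group mean on the log2 scale while PDPN lay 1.09 above it.

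The genes with the profile closest to AGER and CAV1 were sought among 5534 genes over the 6 samples, by the root mean square distance of centred log2(FPKM + 1) values. For AGER these were ALKBH7, CHCHD1 and MYD88, at distances of 0.0975, 0.101 and 0.116. Of the other members abundant enough for this comparison (CAV1, CAV2, CLDN18 and GPRC5A), CAV1 was nearest to AGER, at 0.339 and rank 1126. For CAV1 the closest were RPL7, IFT46 and CAV2, at distances of 0.0661, 0.0667 and 0.0667. CAV2 thus was at rank 3 for CAV1, and AGER at rank 1790.

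A further 25 genes known from alveolar type I cells were listed, of which 13 were measured. Of these, 1 was past the threshold as higher and 0 as lower, and their median difference was 0.11, close to the 0.13 of all mRNAs. The gene past the threshold was SCEL, which encodes sciellin, a precursor of the cornified envelope also found in stretched flat epithelia. SCEL had 1.55, 1.33 and 1.71 FPKM in Fetal1 to Fetal3 and 6.95, 5.30 and 11.6 FPKM in Neonatal1 to Neonatal3. It rose by 1.76 on the log2 scale (standard error 0.28, limma, adjusted p = 0.0138), and the adjusted p was 0.0540 to 0.0855 when a fetal sample was left out. AQP5, the water channel of the apical membrane, had 91.0, 78.0 and 96.1 FPKM before birth and 84.8, 129.8 and 210.5 FPKM after it, with overlapping groups (limma, adjusted p = 0.327). SPOCK2, a matrix proteoglycan, had 81.2 ± 9.96 and 138 ± 25.4 FPKM (SD, n = 3 each), with groups that did not overlap (limma, adjusted p = 0.0974).

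The remaining genes of this list included some of the most abundant in the lung. CYP4B1, a cytochrome P450 of lung, had 424 ± 37.2 and 369.6 ± 99.0 FPKM (SD, n = 3 each; limma, adjusted p = 0.664). VEGFA, the growth factor through which alveolar epithelium acts on capillaries, had 44.1 ± 8.63 and 39.3 ± 11.1 FPKM (SD, n = 3 each; limma, adjusted p = 0.705). COL4A3 and COL4A4, chains of basement membrane collagen, had differences of 0.11 and 0.026. The summed FPKM of the 13 genes was 712 to 790 in the fetal and 608 to 923 in the neonatal samples.

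Flattening of alveolar cells is known to involve YAP and TAZ, coactivators that respond to stretch. The list made for them also holds the transcription factor GATA6, while YAP1 itself matched no row. Of its 12 measured genes, 2 were past the threshold, both as higher, and the median difference was 0.44. ANKRD1, a target of YAP also induced in stretched muscle, had 0.651, 0.0632 and 0.0461 FPKM in Fetal1 to Fetal3 and 4.63, 2.90 and 3.52 FPKM in Neonatal1 to Neonatal3. It rose by 1.92 on the log2 scale (standard error 0.26, limma, adjusted p = 0.00918), and the adjusted p was 0.0611 without Fetal2. CCN2, a matricellular growth factor and YAP target, rose from 27.3 ± 4.80 to 55.6 ± 8.39 FPKM (SD, n = 3 each; limma, adjusted p = 0.0334). This call was lost with median-of-ratios scaling (adjusted p = 0.0657), with quantile normalization and with any sample left out. CCN1, a related target, had groups that did not overlap and a difference of 1.15 (limma, adjusted p = 0.0719), and TEAD2, a DNA-binding partner of YAP, had a difference of 0.71 (limma, adjusted p = 0.110). These genes are active in smooth muscle and fibroblasts too, and ACTA2, the smooth muscle actin, had 116 ± 29.3 and 383 ± 50.2 FPKM (SD, n = 3 each). The part of such cells in the values of ANKRD1 and CCN2 was not tested.

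Type II cells give the scale of the rest of the alveolar epithelium. Of 11 measured type II genes, 0 were past the threshold in limma and 1 had an unadjusted p below 0.05, and their median difference was 0.070. SFTPC, the gene of surfactant protein C, had 3171, 3450 and 3902 FPKM in Fetal1 to Fetal3 and 4233, 6097 and 8790 FPKM in Neonatal1 to Neonatal3. The groups did not overlap, but the difference of 0.80 missed the threshold (limma, adjusted p = 0.429), and with quantile normalization it was 0.0043. SFTPB, the gene of surfactant protein B, had 674 ± 54.4 and 982 ± 129 FPKM (SD, n = 3 each), also without overlap (limma, adjusted p = 0.320). FASN, the fatty acid synthase that feeds surfactant lipid, had a difference of -0.67 with groups apart and lower in the neonatal group (limma, adjusted p = 0.156).

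Relative to SFTPC, 4 of the 7 alveolar type I genes had neonatal ratios below every fetal ratio, namely AGER, CAV1, CAV2 and CLDN18. The same held for 32.4% of all other mRNAs, so the count is not read as particular to these genes. AGER stood at 18.2%, 11.8% and 19.7% of SFTPC in the fetal samples and at 9.35%, 11.4% and 8.24% in the neonatal samples. CAV1 stood at 12.4%, 10% and 9.87% of SFTPC before birth and at 5.51%, 4.65% and 4.59% after it. The mean log2 difference of the ratio was -0.75 for AGER, -1.14 for CAV1, -1.08 for CAV2 and -0.61 for CLDN18. Each had p = 0.1 in an exact permutation test (two-sided), the smallest possible with 3 samples against 3, and 0.24 after adjustment over 12 ratios. The ratios share SFTPC as their denominator, and SFTPC itself was higher in every neonatal sample, so they are not separate observations. A ratio within a sample is the same under median-of-ratios scaling but not under quantile normalization, chosen as an alternative after the data had been seen. SFTPC lay between percentiles 99.93 and 99.96 in every sample, and with quantile normalization its own difference was 0.0043. The ratios then nearly repeat each gene's own quantile-normalized difference, so they cannot check the ratios to SFTPC. These values were -0.60 for AGER, -0.92 for CAV1, -0.66 for CAV2 and -0.22 for CLDN18, and the groups overlapped for AGER and CLDN18. For PDPN the value was 0.28 in place of -0.39, and for GPRC5A 0.0019 in place of -0.51. GPRC5A, PDPN and AKAP5 had ratios to SFTPC that overlapped between the groups (two-sided exact permutation test, p = 0.2, 0.7 and 0.3).

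**Figure D4:**
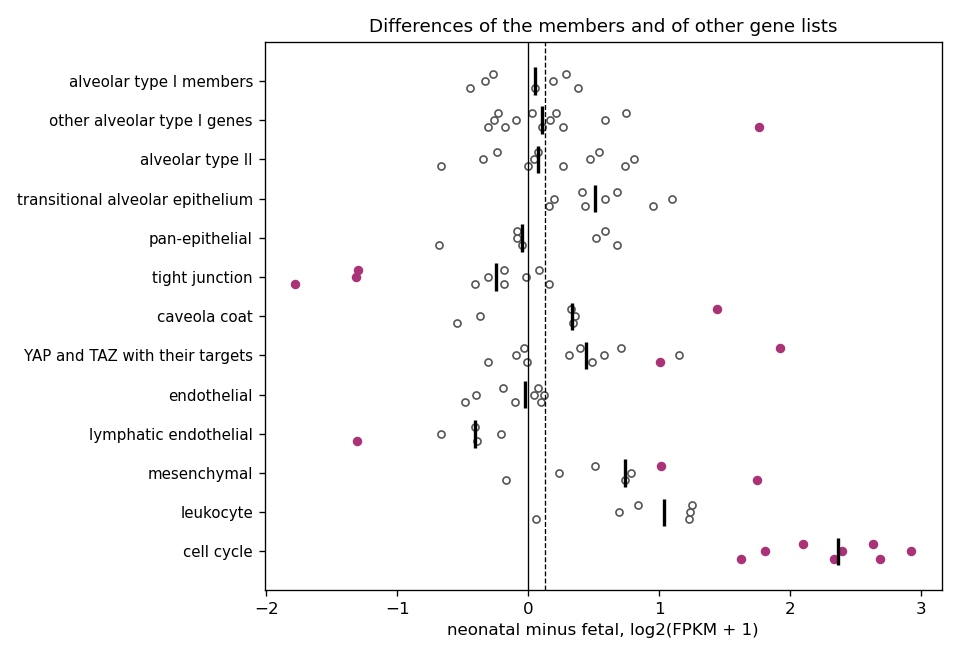
Log2 differences, neonatal minus fetal, of the genes of each list, with 1 point per gene, filled where the adjusted p was 0.05 or less, and a bar at the list's median. The measured alveolar type I genes lie between -0.45 and 0.38 with no filled point, and the dashed line marks the median of all mRNAs, 0.13.

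Genes of epithelium as a whole gave the background for these values. Of 7 measured pan-epithelial genes, 0 were past the threshold, and 3 had an unadjusted p below 0.05. EPCAM, an epithelial adhesion protein, had 48.5, 46.4 and 44.6 FPKM in Fetal1 to Fetal3 and 31.6, 19.9 and 36.7 FPKM in Neonatal1 to Neonatal3 (limma, adjusted p = 0.144). CDH1, the gene of E-cadherin, had 67.1 ± 9.54 and 96.1 ± 5.77 FPKM (SD, n = 3 each; limma, adjusted p = 0.154). The keratin genes KRT18 and KRT8 had larger differences than CDH1, at 0.68 and 0.59 (limma, adjusted p = 0.0987 and 0.232). Of the 7 genes, 3 had a positive difference and 4 a negative one, with a median of -0.046.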

How the data were processed

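Lung RNA of 3 fetal and 3 neonatal piglets was sequenced by the authors, with 1 strand-specific, ribosomal RNA depleted library per piglet. Base calls came from CASAVA 1.8.2. The authors mapped reads to Sscrofa10.2 with TopHat 2.1.0 and deposited FPKM, fragment numbers scaled to transcript length and mapped reads, as computed by Cufflinks 2.2.1. All 14579 mRNAs of the table had FPKM above 0.5 in at least 1 sample. The lncRNA table was not used here. A small group of listed genes is not reported here. The 6 columns were matched to samples by name, and 0 were left over.

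Differences were fitted with limma 3.58.1 in R 4.3.3 on log2(FPKM + 1) with a mean-variance trend, and Benjamini-Hochberg adjustment ran over all mRNAs. This fit was tested on simulated data. Ratios were compared with exact permutation tests (Python 3.11.15, scipy 1.17.1, numpy 2.4.6, pandas 2.3.3). Matplotlib 3.10.9 made the figures. The table holds no read counts, so the depth behind a value is unknown and counting error could not be estimated.

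Symbols came from a reference table of pig Ensembl identifiers, which named 9478 mRNAs. A further 362 took a name from the table of changed genes that accompanies the study. Since such a name marks a gene that the study had called, these genes were left out of the counts and medians of the gene lists. The members, the lists and the 12 ratios were chosen with earlier results of these data known. Named genes were the members and, from each list, those past the threshold or up to 4 with the largest differences at a mean FPKM of at least 1, and all genes of small families. Some further listed genes that missed the threshold, and the genes named from the study's table, were picked for mention after their values were seen. For AGER and CAV1, the 3 genes with the most similar profile were also named, among those with a symbol and a mean FPKM of at least 5.

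Alternatives were pseudocounts of 0.5 and 0.1, quantile normalization, scaling by median-of-ratios size factors, a fit without the trend, a stricter filter (FPKM over 1 in 3 or more samples), a replicate block, and leaving out each sample in turn.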

Additional observations from a re-analysis of the deposited data

How the results depend on the processing

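For all mRNAs, the number past the threshold was 401 with the replicate number as a replicate block, and 196 (without Fetal2) to 944 (without Neonatal1) with 1 sample left out, against 1001. The cause was not tested. The numbers do not pair piglets, which came from different sows, and same-numbered samples had correlations of deviations between -0.041 and -0.00080 over mRNAs with a mean FPKM of at least 1, and no fetal sample correlated best with its own number. The share of higher calls was 78.8%, against 66.0% of 985 calls with median-of-ratios scaling and 57.9% of 1155 with quantile normalization. With quantile normalization 2 alveolar type I genes were past the threshold as lower, CAV1 and CAV2, and 2 rather than 4 had a positive difference. With 1 sample left out, 2 to 4 were positive. Of the further alveolar type I genes, 0 to 1 were past the threshold with 1 sample left out. The sign turned for AGER with median-of-ratios scaling (-0.13) and quantile normalization (-0.60), and for CLDN18 with quantile normalization (-0.22). With 1 sample left out, differences ranged from -0.19 to 0.33 for AGER, from -0.17 to 0.85 for PDPN and from -0.052 to 0.35 for CLDN18. In the other 81 fits of members neither sign nor call changed. The 15 higher and 4 lower listed genes past the threshold, which include some not named here, lost their call in 60 fits and kept it in 187, alternatives chosen after the data had been seen. With 3 animals a group, the median 95% interval was 1.15 wide on the log2 scale, so smaller changes were often not detectable.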

Other observations

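Of 8 measured genes of cell division, 8 were past the threshold as higher in the neonatal group, with a median difference of 2.36. TOP2A, a topoisomerase of dividing cells, rose from 2.46 ± 0.578 to 25.3 ± 5.15 FPKM (SD, n = 3 each; limma, adjusted p = 0.00147), and MCM2, a subunit of the replicative helicase, rose from 3.32 ± 0.665 to 26.8 ± 4.01 FPKM (SD, n = 3 each; limma, adjusted p = 0.00147). Of 7 measured mesenchymal genes, 2 rose, ACTA2 by 1.74 (limma, adjusted p = 0.0138) and FN1, the gene of fibronectin, by 1.02 (limma, adjusted p = 0.0447). The call on FN1 was lost with any sample left out, and that on ACTA2 without Fetal1, Fetal2, Neonatal2 or Neonatal3.

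Genes of the transitional state between type II and type I cells all had positive differences, 8 of 8 measured, with a median of 0.51, but 0 were past the threshold in limma and 3 had an unadjusted p below 0.05. With median-of-ratios scaling 7 were positive and with quantile normalization 6. The share of all mRNAs with a positive difference is not given here, so the count is not read as particular to this state. KRT8 and KRT18 are also counted in the pan-epithelial list, and CLDN4 in the tight junction list. AREG was near 0, with 0.022, 0 and 0.094 FPKM in Fetal1 to Fetal3 and at most 0.740 FPKM in the neonatal samples. KRT18, a keratin of simple epithelium, had 39.6 ± 5.18 and 64.2 ± 10.5 FPKM (SD, n = 3 each; limma, adjusted p = 0.0987). Leukocyte genes had a median difference of 1.03, with 0 of 6 past the threshold and 4 with an unadjusted p below 0.05. Their summed FPKM was 116 to 328 in the fetal and 259 to 649 in the neonatal samples. Most of this sum in every sample was MARCO, whose groups overlapped. The summed FPKM of erythroid genes was 1260 to 2700 in the fetal and 967 to 1535 in the neonatal samples, and 0 of 4 were past the threshold. HBB, whose groups overlapped, made up most of the erythroid sum in every sample. Of the 4 erythroid genes, 2 had a positive difference and 2 a negative one, with HBM at 0.78 and HBB at -0.77. Of the airway epithelial genes, 0 of 4 were past the threshold. SCGB1A1, the secretoglobin of club cells, was listed at 0.213 FPKM in Neonatal2 and at 62.2 and 62.0 FPKM in Neonatal1 and Neonatal3. In the fetal samples it had 99.8 to 139 FPKM, so the groups did not overlap (limma, adjusted p = 0.265).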
